A study of Mus musculus with 4 samples.

Results

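The annexins are a family of proteins that bind membrane phospholipids when calcium is present, and their transcripts were followed in peritoneal macrophages of the mouse after a night in culture with the cytokine transforming growth factor beta 2 (TGFb2) or with PBS alone. Members were the probe sets annotated in the platform table with exactly 1 of 8 annexin symbols, Anxa1 to Anxa7 and Anxa11. This gave 10 of the 12488 probe sets, for 7 genes, with 3 probe sets for Anxa1, 2 for Anxa7 and 1 each for the others. Anxa11 appears only on 1 probe set that carries other gene symbols too, so it is given no value. The family was chosen from earlier results of these same arrays, in which its TGFb2 and PBS signals were known, so its own differences between the groups are a description, without a test. Of the 10 probe sets, 9 passed the filter on dim probe sets (a mean signal of at least 25.1, the 40th percentile), and 1 of Anxa7 did not.

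Each group held 2 arrays, TGFb2 replicates 1 and 2 and PBS replicates 1 and 2. The TGFb2 cells received 5 ng of porcine TGFb2, with no volume stated in the labels, and the PBS cells received the vehicle, both in serum-free medium. All cells came from female BALB/c mice 6 to 8 weeks old, 4 days after 2 ml of 3% thioglycolate had been injected to recruit macrophages to the peritoneum. The labels do not say whether replicates were separate cultures or animals, or whether animals were pooled, so the spread between arrays may be technical. RNA was taken from the adherent fraction, labelled as over 95% positive for the macrophage surface protein F4/80.

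Annexins share a conserved core that docks on phosphatidylserine-rich membranes and differ in a variable N-terminal region that binds other proteins. In macrophages they take part in membrane repair, vesicle traffic, phagocytosis and the handling of dying cells. Annexin A1 is the member best known in inflammation: glucocorticoids induce it, and it and peptides of its N-terminus act on formyl peptide receptors to limit the recruitment of neutrophils.

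Macrophage genes were measured in both groups, with 10 of 10 listed markers above the filter. Adgre1, which encodes F4/80, had signals of 470.9 and 747.7 with TGFb2 and of 488.1 and 779.9 with PBS. Of 10 macrophage markers tested, 0 passed limma's moderated test (adjusted p under 0.05, with 6 at an unadjusted p under 0.05). Of these 10, 6 had a log2 difference above 0 and 4 below (median 0.38), and the groups did not overlap for 8, against 42.9% of all tested probe sets. The Fc receptor gene Fcgr1 had the highest, with signals of 480.4 and 315.8 with TGFb2 and of 177.6 and 161.5 with PBS (log2 difference 1.13, SE 0.22, limma adjusted p = 0.067). Of 12 neutrophil markers, 7 were below the filter and 1, the calgranulin S100a8, rose (log2 difference 1.80, SE 0.24, adjusted p = 0.024 in limma). The summed neutrophil signal was 1090.1 and 1129.7 with TGFb2 and 643.4 and 670.2 with PBS. Without S100a8 it was 539.5 and 450.5 with TGFb2 and 514.7 and 459.3 with PBS. The granule gene Ngp was near 0 (4.9 and 7.0 with TGFb2, 7.6 and 6.0 with PBS), but 4 tested markers that did not pass were brighter. Csf3r had signals of 159.9 and 201.5 with TGFb2 and of 214.9 and 188.0 with PBS. Lcn2 had 130.7 and 68.7 with TGFb2 and 95.6 and 102.7 with PBS. Camp had 94.3 and 82.4 with TGFb2 and 74.8 and 63.4 with PBS. Elane had 33.1 and 38.4 with TGFb2 and 32.9 and 34.6 with PBS. The groups were apart for Camp and overlapped for Csf3r, Lcn2 and Elane. Of 10 fibroblast and mesothelium markers tested, 2 rose in limma, Col1a1 (log2 difference 1.29) and Fbln2 (1.53), and 1 fell, Dcn (-1.63). Of all tested probe sets, 1.17% passed. The sums over the 14 listed genes were 2537.3 and 2243.3 with TGFb2 and 2796.3 and 2085.0 with PBS, and they mix these opposite differences. All 5 T cell and 3 eosinophil markers on the array lay below the filter, and of 4 B cell and 3 mast cell markers tested 0 passed in limma (0 and 1 at an unadjusted p under 0.05). The part of these cells in the annexin values was not tested. In such bulk RNA, fewer cells of a type and less RNA per cell cannot be told apart.

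Promoter sequences are shown for Anxa1 and Anxa4, whose signals were lower with TGFb2, and for Anxa2 and Anxa5, whose signals were not, to set the letters before each start beside those values. They come from RefSeq (GRCm38.p6), which matched 6 of the 8 symbols (Anxa3 and Anxa6 have no entry), and hold up to 250 bases before the start and outside the annotated gene, written 5′ to 3′ on the gene's strand. Capitals mark matches to 4 motifs, as spelled here or as the reverse complement. The motif CAGAC holds the letters that Smad proteins bind. The motif TGTTCT is a half-site of the glucocorticoid receptor. The motif TATAAA is a TATA box, on which transcription starts are assembled. The motif GGGCGG is a GC box, which Sp-family factors bind.
Anxa1, chr19:20390672-20390921, minus strand: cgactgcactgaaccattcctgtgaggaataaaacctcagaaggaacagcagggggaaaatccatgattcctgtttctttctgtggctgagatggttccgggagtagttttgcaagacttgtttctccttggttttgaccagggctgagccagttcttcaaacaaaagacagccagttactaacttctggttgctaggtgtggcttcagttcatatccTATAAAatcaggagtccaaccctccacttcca
Anxa4, chr6:86793635-86793834, minus strand: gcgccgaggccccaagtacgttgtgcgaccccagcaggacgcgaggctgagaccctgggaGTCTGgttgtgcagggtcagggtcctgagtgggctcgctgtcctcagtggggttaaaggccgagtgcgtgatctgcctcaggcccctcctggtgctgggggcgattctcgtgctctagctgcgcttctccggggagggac
Anxa2, chr9:69453433-69453682, plus strand: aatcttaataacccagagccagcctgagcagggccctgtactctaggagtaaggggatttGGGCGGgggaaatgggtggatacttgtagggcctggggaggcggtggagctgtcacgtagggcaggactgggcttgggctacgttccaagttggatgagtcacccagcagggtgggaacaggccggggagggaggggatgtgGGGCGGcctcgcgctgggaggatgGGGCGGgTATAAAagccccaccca
Anxa5, chr3:36475888-36476137, minus strand: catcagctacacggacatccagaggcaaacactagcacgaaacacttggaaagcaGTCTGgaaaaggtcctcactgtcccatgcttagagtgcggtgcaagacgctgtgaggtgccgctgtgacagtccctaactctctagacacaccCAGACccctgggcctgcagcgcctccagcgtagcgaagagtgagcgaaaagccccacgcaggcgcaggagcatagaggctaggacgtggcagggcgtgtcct
The Anxa1 window held 1 TATA box, which begins 32 bases before the start, and 0 matches to the other motifs. That of Anxa2 held 1 TATA box, 17 bases before the start, and 3 GC boxes. The Smad letters occurred 2 times in the Anxa5 window and 1 time in the Anxa4 window shown, and the glucocorticoid half-site in neither. A second Anxa4 window, which lies inside the gene and is not shown, held 2 half-sites. The overlapping windows of Anxa7, whose signals were also lower with TGFb2, are not shown and held 4 and 1 GC boxes. Among 32851 windows of 250 bases in the table, 42.2% held the Smad letters, 16.1% the half-site, 12.4% the TATA box and 32.7% the GC box. None of these motif matches overlapped another in the sequences shown. A match here describes letters only.

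Annexin A1 had the largest differences of the tested annexins, and all 3 of its probe sets were lower with TGFb2. Probe set 93037_i_at had signals of 565.7 and 485.4 with TGFb2, against 1209.4 and 1062.0 with PBS. Probe set 161703_f_at had signals of 2017.2 and 1501.8 with TGFb2, against 3330.8 and 3451.0 with PBS. Probe set 93038_f_at had signals of 3044.2 and 3425.1 with TGFb2, against 5243.2 and 4749.7 with PBS. In each of the 3, both TGFb2 arrays lay below both PBS arrays. The endings mark limits of the design: an _i_ set has fewer probes than usual, and an _f_ set may share probes with similar sequences.

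The 3 probe sets of Anxa1 differed in the size of the change. The mean signal of 93037_i_at was 526 ± 56.8 with TGFb2 and 1136 ± 104 with PBS (SD over the 2 arrays of each group, n = 2, here and below), so that TGFb2 cells had 46.3% of the PBS signal. The TGFb2 mean was 51.9% of the PBS mean for 161703_f_at and 64.7% for 93038_f_at. On the scale used for the fit, log2(signal + 15), the differences were -1.09 for 93037_i_at, -0.96 for 161703_f_at and -0.63 for 93038_f_at, with standard errors of 0.16, 0.16 and 0.12. Any single TGFb2 array divided by any single PBS array gave ratios of 0.401 to 0.533 for 93037_i_at, 0.435 to 0.606 for 161703_f_at and 0.581 to 0.721 for 93038_f_at. The ratio ranges of 93037_i_at and 93038_f_at do not meet, whereas that of 161703_f_at overlaps both.

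The Anxa1 probe sets also did not order the 2 TGFb2 arrays alike. Replicate 1 was above replicate 2 by 0.21 on the log2 scale for 93037_i_at and by 0.42 for 161703_f_at, and the difference was -0.17 for 93038_f_at. Averaged over the 3 probe sets, Anxa1 stood at 10.58 and 10.43 on the log2 scale with TGFb2 and at 11.44 and 11.35 with PBS. This is a difference of -0.89, or 0.539 of the PBS level, where the pooled SD between arrays of a group was 0.09.

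**Figure D1:**
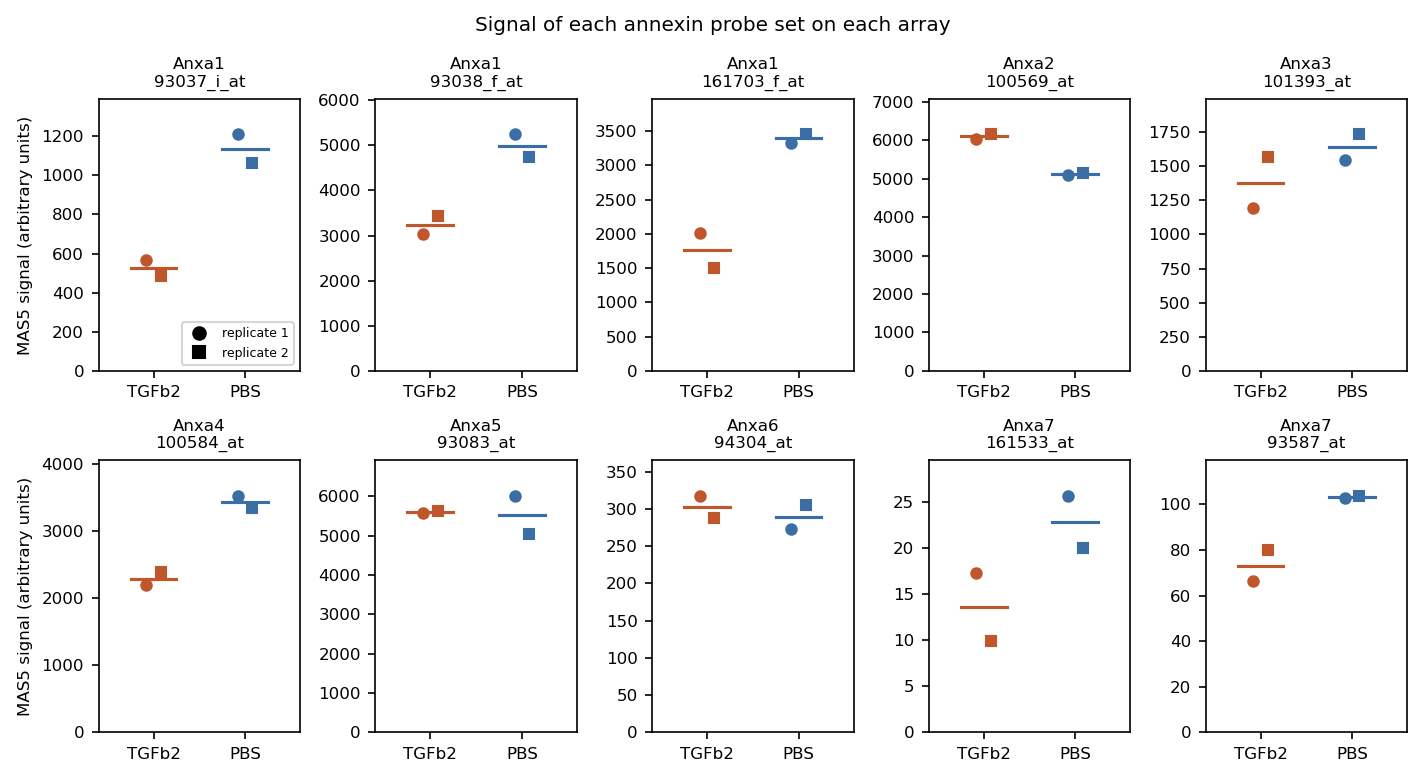
Signal of each annexin probe set (vertical axis, MAS5 signal in arbitrary units, from 0) on the TGFb2 arrays (orange, left) and the PBS arrays (blue, right). Circles are replicate 1, squares replicate 2 and lines group means; the groups are apart for the 3 Anxa1 probe sets, Anxa2, Anxa4 and both Anxa7 probe sets, and overlap for Anxa3, Anxa5 and Anxa6. Axes differ between panels, since levels of different probe sets are not comparable.

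Annexin A4, a phospholipid-binding protein of epithelial and other cell membranes, came next. Its probe set had signals of 2193.8 and 2395.3 with TGFb2, against 3530.7 and 3356.8 with PBS. Both TGFb2 arrays lay below both PBS arrays, with single-array ratios of 0.621 to 0.714. The log2 difference was -0.58 with a standard error of 0.12, about the size of that of the Anxa1 probe set 93038_f_at. The group means were 2295 ± 142 with TGFb2 and 3444 ± 123 with PBS.

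Annexin A2 went the other way by a small amount. It pairs with the S100 protein S100a10 and is known as a docking site for plasminogen and its tissue activator on the cell surface. Its probe set had signals of 6044.9 and 6152.8 with TGFb2, against 5105.8 and 5147.3 with PBS. Replicates were close, both TGFb2 arrays lay above both PBS arrays, and the TGFb2 mean was 1.19 times the PBS mean. The log2 difference was 0.25 with a standard error of 0.10, which limma takes partly from probe sets of like brightness, while the pooled SD between these arrays was 0.014. All single-array ratios lay between 1.17 and 1.21.

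The groups overlapped for Anxa3, Anxa5 and Anxa6. Annexin A5, which binds exposed phosphatidylserine and is used as a stain for dying cells, had signals of 5583.0 and 5630.9 with TGFb2, between the 6010.6 and 5036.5 of the PBS arrays. Its log2 difference was 0.03 with a standard error of 0.12. Annexin A6, the member with a doubled core, had signals of 317.3 and 287.4 with TGFb2 and of 272.4 and 304.8 with PBS, which differ by 0.06 on the log2 scale (SE 0.17). Annexin A3, abundant in neutrophils, had signals of 1195.4 and 1563.9 with TGFb2 and of 1541.4 and 1732.5 with PBS. Only TGFb2 replicate 1 of Anxa3 lay below both PBS arrays, and the log2 difference was -0.25 with a standard error of 0.16.

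Annexin A7, also called synexin, has a long N-terminal region that binds the calcium-binding proteins sorcin and Pdcd6. Its probe set 93587_at had signals of 66.2 and 80.1 with TGFb2, against 102.6 and 103.7 with PBS, which differ by -0.43 on the log2 scale (SE 0.19). The second probe set, 161533_at, was dim, with signals of 17.3 and 9.9 with TGFb2 and of 25.7 and 20.0 with PBS, and was not tested. Both TGFb2 arrays lay below both PBS arrays on each. At such signals the pseudocount of 15 shrinks the log2 difference.

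Of the 9 tested annexin probe sets, 6 had a difference below 0 and 3 above, and their median log2 difference was -0.43. The median over all 7453 tested probe sets was 0.00, with 50.2% below 0. In the limma fit over all tested probe sets, 2 of the 9, both of Anxa1 (93037_i_at and 161703_f_at), passed an adjusted p of 0.05, against 1.17% of all tested probe sets (0.362% lower and 0.805% higher with TGFb2). The groups did not overlap for 5 of the 9 in the lower direction and 1 in the higher, where 42.9% of all tested probe sets had no overlap (21.8% lower and 21.1% higher). Since this contrast was known when the family was chosen, nothing is read from these counts. Leaving out any single array (TGFb2 replicate 1 or 2, PBS replicate 1 or 2) left 0 of the 9 past the threshold in limma, with 4 to 6 at an unadjusted p under 0.05, although the sign of each Anxa1, Anxa2, Anxa3, Anxa4 and Anxa7 difference stayed as given.

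**Figure D2:**
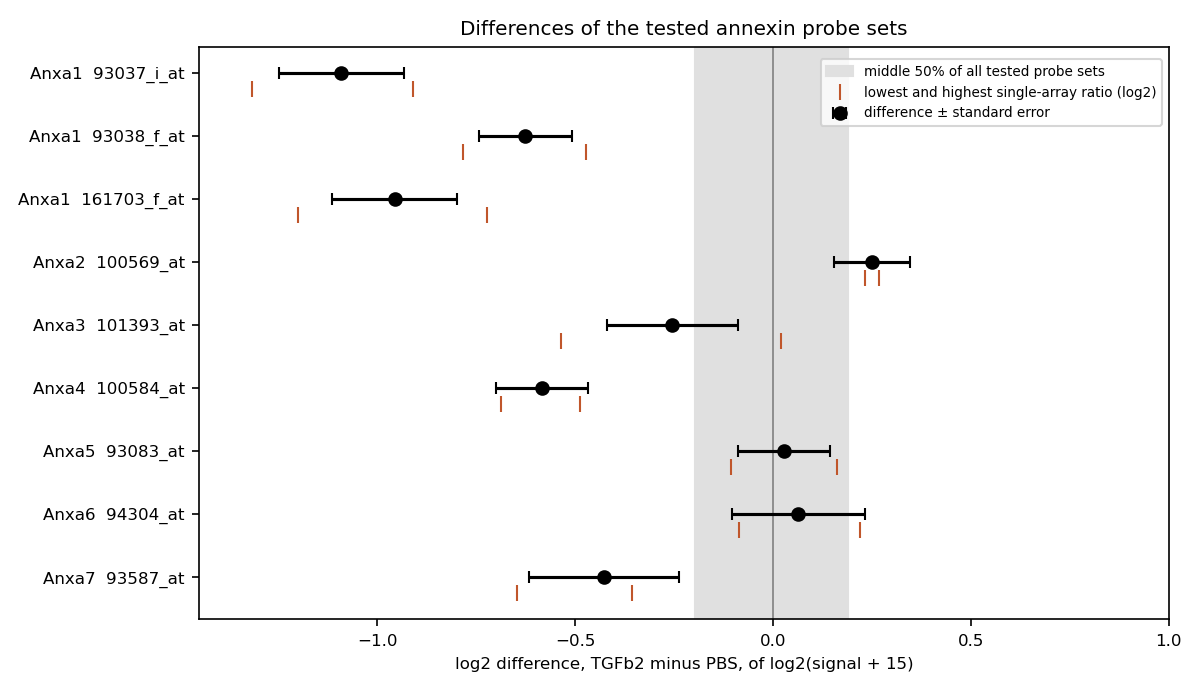
Log2 difference, TGFb2 minus PBS, of log2(signal + 15) for the 9 tested annexin probe sets (points, with standard errors as bars), above ticks for the lowest and highest ratio of the raw signals of 1 TGFb2 array to 1 PBS array on the log2 scale. The grey band holds the middle 50% of all tested probe sets (-0.20 to 0.19); the Anxa1, Anxa4 and Anxa7 points lie left of it, Anxa3 just left and Anxa2 just right of it, and Anxa5 and Anxa6 inside it.

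Differences of the annexins were then followed through the processing alternatives. The mean Anxa1 difference stayed between -0.97 and -0.81 over 12 alternatives, and that of Anxa4 between -0.65 and -0.52. Anxa2 stayed above 0, from 0.15 after quantile normalization to 0.26. Anxa3 ran from -0.45 without TGFb2 replicate 2 to -0.06 without TGFb2 replicate 1, so 1 array sets most of its size. Anxa5 (-0.10 to 0.15) and Anxa6 (-0.01 to 0.14) changed sign: Anxa5 was below 0 after quantile or cyclic loess normalization and without PBS replicate 2, and Anxa6 without TGFb2 replicate 1 and without PBS replicate 1.

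**Figure D3:**
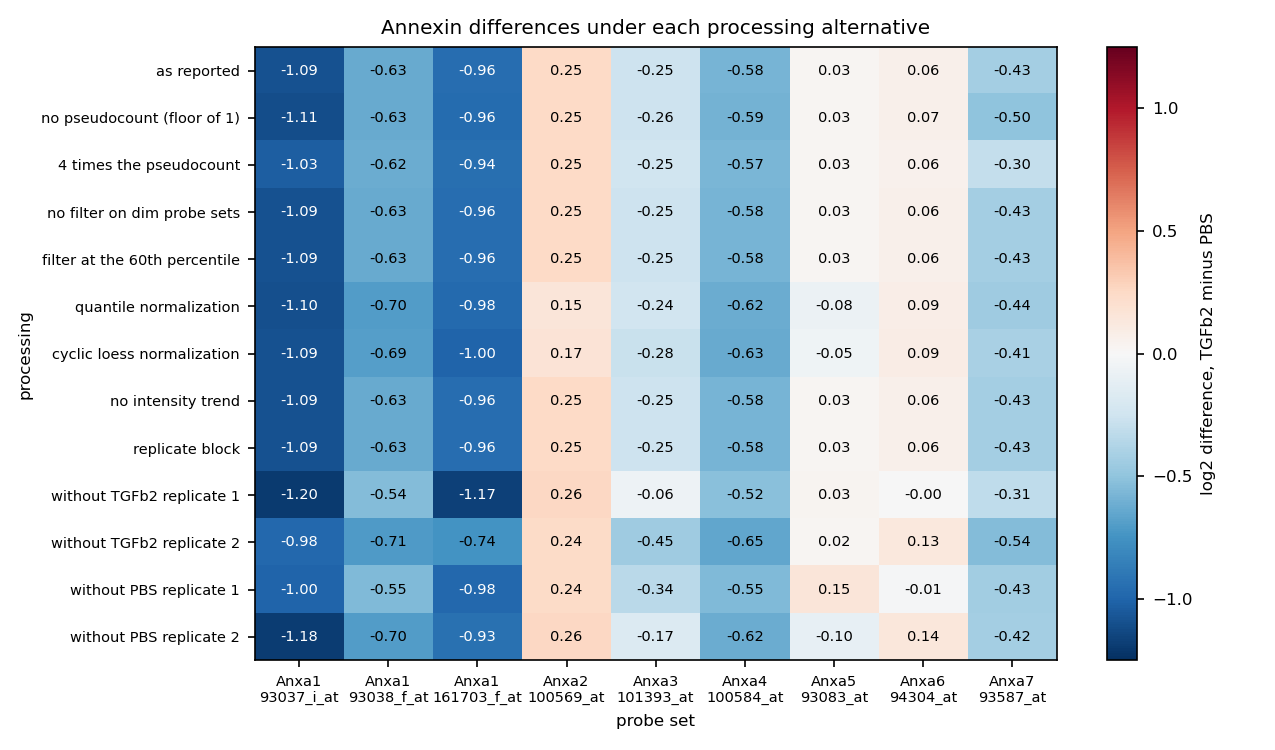
Log2 difference, TGFb2 minus PBS (colour and number), of each tested annexin probe set (columns) as reported and under 12 processing alternatives (rows). Anxa1, Anxa4 and Anxa7 are below 0 and Anxa2 above 0 in every row shown, while Anxa5 and Anxa6 change sign.

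The tested probe sets whose profile over the 4 arrays lay nearest to the mean Anxa1 profile were, in order, those of Ccrl2, Maoa, Limk1, Tspan13 and Trappc10. Nearness was the Euclidean distance between centred log2 values over 4 arrays, among 6713 probe sets with 1 gene symbol. Distances ran from 0.056 for Ccrl2 to 0.14 for Trappc10, while the Anxa1 probe sets lay 0.21 to 0.35 from their own mean. Ccrl2, an atypical receptor that binds the chemoattractant chemerin, had signals of 109.4 and 100.5 with TGFb2 and of 215.6 and 208.4 with PBS. Maoa, which degrades monoamines, had signals of 450.2 and 419.8 with TGFb2 and of 878.4 and 783.9 with PBS. With only 4 arrays such likeness is a description of the difference between the groups. For Limk1, a kinase that regulates actin through cofilin, a dimmer probe set had signals of 48.9 and 67.3 with TGFb2 and of 28.9 and 50.4 with PBS and so was not like Anxa1.

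Genes that work with annexins were examined in 6 lists, each gene by its brightest tested probe set. Of 8 tested S100 and calcium-binding partners, 0 passed in limma (2 at an unadjusted p under 0.05), with a median log2 difference of 0.13. S100a10, the partner of annexin A2, had signals of 3737.2 and 3410.5 with TGFb2 and of 2931.6 and 3306.2 with PBS (log2 difference 0.20, SE 0.12, limma adjusted p = 0.60). Both TGFb2 arrays lay above both PBS arrays on this probe set, as for Anxa2 and for 21.1% of all tested probe sets. A dimmer tested probe set of S100a10, 162340_r_at, overlapped between the groups. Its signals were 61.3 and 47.5 with TGFb2 and 45.1 and 55.7 with PBS (log2 difference 0.08). S100a11, the partner of annexin A1, had no probe set of its own symbol and was not analysed here. S100a13, a calcium-binding protein that takes part in nonclassical secretion, had the widest difference of the list, with signals of 2438.0 and 2020.7 with TGFb2 and of 1464.7 and 1538.0 with PBS (0.56, SE 0.14, limma adjusted p = 0.15). Its other tested probe sets differed by 0.35 and 0.86. S100a1 followed at 0.42 (SE 0.17, limma adjusted p = 0.39) on an _f_ probe set, while its other 2 probe sets were below the filter.

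Of 5 listed formyl peptide receptors, through which annexin A1 acts, 3 had a probe set of their own symbol, and these were dim. Fpr1 and Fpr3 had none and were not analysed here. Only Fpr2 passed the filter, with signals of 7.4 and 13.6 with TGFb2 and of 22.0 and 87.5 with PBS. The PBS arrays were far apart, and the log2 difference of -1.28 (SE 0.48) did not pass in limma (adjusted p = 0.36). Its size rests on PBS replicate 2, without which it was -0.55. The difference was -2.13 without a pseudocount and -0.64 with 4 times the pseudocount.

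Of 7 plasminogen activation genes, 1 rose and 0 fell in limma (3 at an unadjusted p under 0.05), where 1.17% of all tested probe sets passed. The urokinase gene Plau, which encodes the activator that cells bind through its receptor, had signals of 777.3 and 907.7 with TGFb2 and of 320.4 and 351.4 with PBS (1.29, SE 0.16, limma adjusted p = 0.022). Its call was lost when TGFb2 replicate 1 (adjusted p = 0.087) or TGFb2 replicate 2 (0.085) was left out, without the filter (0.084) and without the intensity trend (0.070), in a range over the 12 limma alternatives of 0.000175 to 0.087. The tissue activator gene Plat had signals of 149.1 and 73.2 with TGFb2 and of 13.4 and 35.6 with PBS, apart between the groups (1.67, SE 0.38, limma adjusted p = 0.11). The median of the list, -0.09, turned to 0.07 without TGFb2 replicate 2 and to 0.13 without PBS replicate 2.

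Phospholipase A2, which annexin A1 was first described to inhibit, releases the arachidonate from which eicosanoids are made. Of 22 listed genes of this pathway, 15 had a probe set of their own symbol, and 5 of these were below the filter. Of the 10 tested, 0 passed in limma (4 at an unadjusted p under 0.05), with a median of 0.10. That median turned to -0.13 without PBS replicate 1 and to -0.02 with a filter set at the 60th percentile. The dim phospholipase gene Pla2g5, not tested, had signals of 8.7 and 6.0 with TGFb2 and of 43.9 and 31.7 with PBS on 94665_at. Its other probe set overlapped between the groups (11.9 and 21.5 with TGFb2, 15.3 and 10.2 with PBS). Ltc4s, the leukotriene C4 synthase, had signals of 193.2 and 256.0 with TGFb2 and of 91.3 and 100.1 with PBS (1.10, SE 0.20, limma adjusted p = 0.052). It lay on the other side of the threshold with a filter set at the 60th percentile (limma adjusted p = 0.044) and after cyclic loess normalization (0.046), in a range over the 12 alternatives of 0.00256 to 0.19. Tbxas1, the thromboxane synthase, had signals of 1023.7 and 972.6 with TGFb2 and of 605.6 and 708.7 with PBS (0.60, SE 0.15, limma adjusted p = 0.16).

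Glucocorticoids induce Anxa1, so other genes they act on were listed. Of 14 tested, 1 rose and 0 fell in limma (3 at an unadjusted p under 0.05), where 1.17% of all tested probe sets passed. There were 6 differences above 0 and 8 below, with a median of -0.03. That median was above 0 without TGFb2 replicate 1 (0.03) and without TGFb2 replicate 2 (0.0037). The kinase gene Sgk1 had signals of 2967.3 and 2898.4 with TGFb2 and of 1656.4 and 1818.9 with PBS (0.75, SE 0.12, limma adjusted p = 0.040). Sgk1 did not pass without any 1 of the 4 arrays (adjusted p of 0.098 to 0.18), nor without the filter (0.16) or the intensity trend (0.18), in a range over the 12 limma alternatives of 0.00247 to 0.18. Dusp1, a phosphatase that inactivates MAP kinases, had signals of 354.8 and 267.9 with TGFb2 and of 777.7 and 552.8 with PBS, apart in the lower direction (-1.05, SE 0.22, limma adjusted p = 0.080). The glucocorticoid receptor gene Nr3c1 had signals of 22.3 and 27.3 with TGFb2 and of 33.4 and 22.5 with PBS.

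Of 12 tested genes of membrane repair and phospholipid scrambling, 0 passed in limma (1 at an unadjusted p under 0.05), with a median of -0.05. That median turned to 0.10 without TGFb2 replicate 1, to 0.03 without the filter and to 0.03 with a filter set at the 60th percentile. The caveolin gene Cav1 had signals of 99.8 and 282.2 with TGFb2, against 64.7 on each PBS array (1.21, SE 0.39, limma adjusted p = 0.27). Its difference was 1.90 without TGFb2 replicate 1 and 0.53 without TGFb2 replicate 2. The first of these fits rests on 1 TGFb2 array against PBS signals that are equal. Cav1 passed in limma with the replicate number as a block (adjusted p = 0.013), against 0.24 to 0.48 for the normalizations, filters, pseudocounts and variance model. The other probe set of Cav1 differed by -0.31. Ehd1, a membrane-remodelling ATPase, had signals of 10.7 and 28.0 with TGFb2 and of 30.6 and 64.5 with PBS (-0.86, SE 0.38, limma adjusted p = 0.45). That difference was -0.49 without TGFb2 replicate 1, -0.46 without PBS replicate 2 and -0.43 with 4 times the pseudocount. Another, dim probe set of Ehd1, not tested, differed by 0.17.

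**Figure D4:**
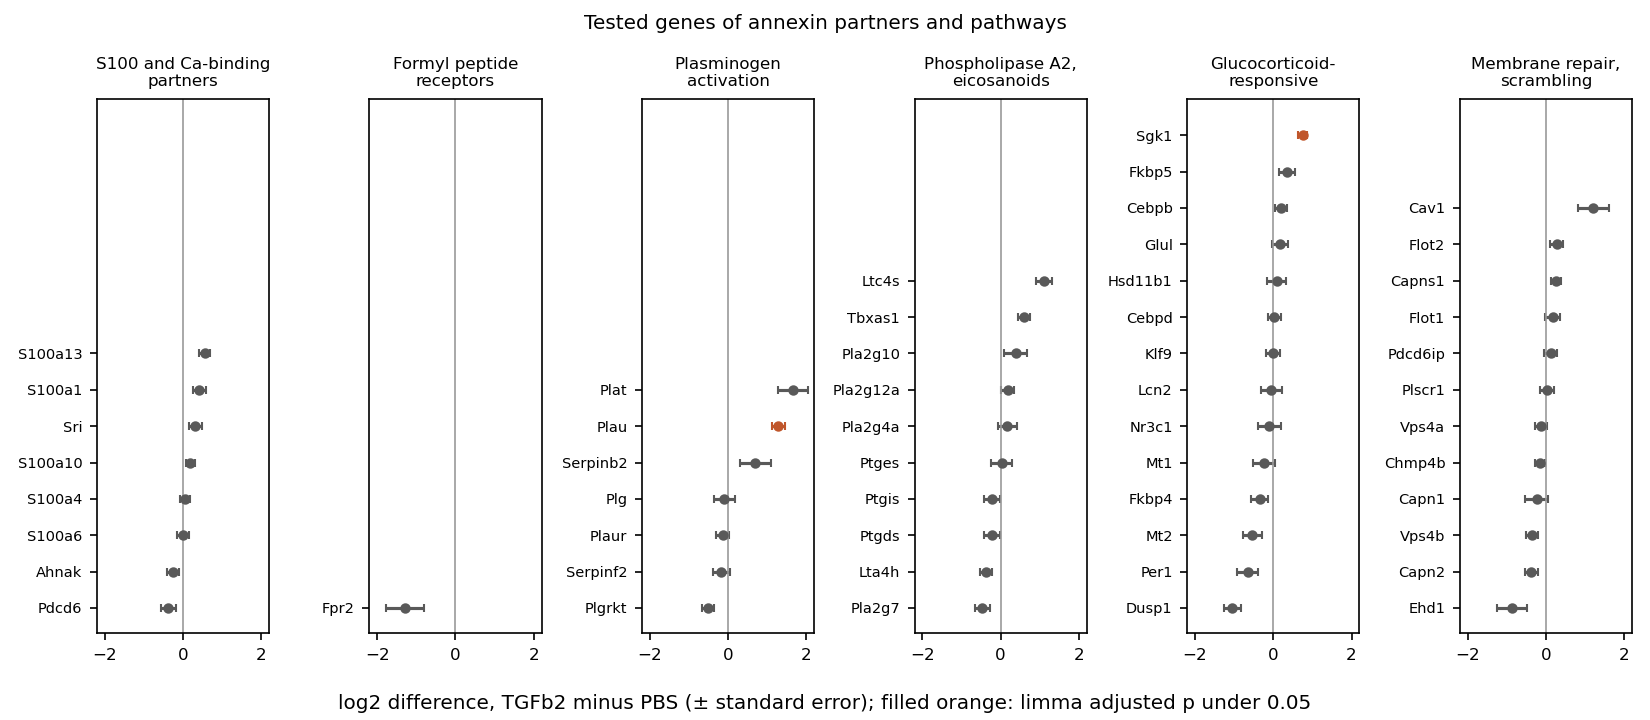
Log2 difference, TGFb2 minus PBS (points, with standard errors as bars), of the tested genes of 6 lists of annexin partners and pathways, 1 panel a list. Orange points passed a limma adjusted p of 0.05: Plau (1.29) and Sgk1 (0.75), both higher with TGFb2; grey points did not.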

How the data were processed

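The deposited values of the 4 arrays are intensities, one signal per probe set of Affymetrix arrays hybridised with biotin-labelled cRNA. The submitters' processing notes name MAS5, without a version. Computed from the deposited values, the 2% trimmed mean was 150.1 on each array. No detection calls or scan dates were at hand, and no batch could be tested. The number of arrays limits the precision.

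From these, log2(signal + 15) was computed, 66 control probe sets were left out, and probe sets with a mean signal at or above the 40th percentile (25.1) were tested, 7453 in all. Limma 3.58.1 in R 4.3.3 fitted TGFb2 against PBS (lmFit, eBayes with intensity trend, 2 residual and 5.6 prior degrees of freedom), two-sided, with Benjamini-Hochberg adjustment over all tested probe sets. The fit was run on simulated data drawn from its own variance model, so that run cannot show how it performs where these arrays depart from the model.

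The annexins, the partner and marker lists and the tests were chosen with earlier results of these arrays known. Named genes were all annexin probe sets, up to 4 passing genes of a list (otherwise the 2 with the largest difference), S100a10, S100a11 and the 5 probe sets nearest to Anxa1. Nr3c1, Dusp1, Plat, Pla2g5, the marker genes and the annexins outside the list were named outside this rule, after their values were seen. Symbols came from the platform annotation. Same-numbered replicates were not treated as pairs, since the labels do not tie them (correlation of their deviations 0.142 over 2 pairs). Alternatives covered pseudocount, filter, normalization, variance model, replicate block and leaving out each array.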

Additional observations from a re-analysis of the deposited data

How the results depend on the processing

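The direction and size of the Anxa1 mean difference held under all 12 alternatives (-0.97 to -0.81), but the number of calls did not. The annexins were chosen with this contrast known, so their calls are a description and nothing is read from them. In limma, the annexin probe sets past the threshold, 2 as reported, were 1 without a pseudocount, 4 after cyclic loess normalization, 0 without the filter and 0 without the intensity trend (4 each at an unadjusted p under 0.05), and 0 when each array was left out in turn (4 to 6 at an unadjusted p under 0.05). All tested probe sets past the threshold, 87 as reported, were 56 without a pseudocount, 6 without the filter, 13 without the intensity trend and 11 to 50 with an array left out, the remaining single array being given the spread of the other arm. Partner and pathway genes past the threshold, 2 as reported, were 0 without the filter and 0 without the intensity trend (17 and 11 at an unadjusted p under 0.05), 3 with the filter at the 60th percentile, 3 after cyclic loess normalization and 0 to 1 with an array left out. With the replicate number as a block, 4 annexin probe sets, 8 partner genes and 324 probe sets in all passed, S100a13 (adjusted p = 0.032), Ltc4s (0.00256), Tbxas1 (0.044), Cav1 (0.013), Plat (0.00681) and Dusp1 (0.00133) among them, as did the macrophage marker Fcgr1 (0.00191); the samples share only a number. Without the filter more probe sets were adjusted for, and without an array the same 7453 probe sets were fitted on fewer arrays. The cause of the changes in these counts was not tested. Anxa2, Anxa3, Anxa5, Anxa6 and Anxa7 were called under 0 of the 12 alternatives. With 2 arrays per group and no detection calls, signals near the pseudocount of 15 have log2 differences that depend on it.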

Other observations

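Annexins outside the list were on the array as 1 probe set each of Anxa8 and Anxa10, both below the filter and not tested. Anxa8 had signals of 31.3 and 28.5 with TGFb2 and of 6.3 and 5.1 with PBS, and both TGFb2 arrays lay above both PBS arrays. The PBS signals lay far below the filter, so no fold is given. Anxa10 had signals of 1.2 and 0.5 with TGFb2 and of 2.5 and 2.0 with PBS, near the lowest signal of the arrays (0.1).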
